A study of Caenorhabditis elegans with 24 samples.

Results

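Small RNA libraries of embryos collected 120 min after the 4-cell stage were compared with libraries of embryos collected 60 min after it. The comparison rests on 6 of the 24 libraries of a timecourse, 3 for each of its 8 stages, and the 6 were chosen by their labelled stage alone. All embryos came from the wild-type Caenorhabditis elegans strain N2, and the labels name no mutation, transgene or treatment at either stage. Both sets of embryos were cut out of adult animals and picked by mouth pipette. Each sample pooled 50 embryos, so a value is an average over many embryos and over all of their cells, in which fewer cells of a type and less RNA per cell cannot be told apart. Separate cultures are not stated in the labels for the samples within a stage, and the p-values speak only for the spread among the libraries at hand, some of it perhaps technical.

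MicroRNAs are short RNAs that guide Argonaute proteins to messenger RNAs and lower their output. Each is cut from a hairpin precursor, whose 5p and 3p arms can both be sequenced, and usually 1 arm is kept in Argonaute while its partner is degraded. Members of a family share the seed, the bases at the 5′ end that select targets, and several families are encoded as clusters cut from a common transcript. In the nematode embryo the mir-35 and mir-51 families are each needed for development to finish, and both families act with much overlap between their members. The interval between the stages falls in the period of rapid cell division and gastrulation, in which the embryo takes over from RNA that the mother supplied.

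The 120 min libraries held 290952, 130301 and 360692 counts, and the 60 min libraries held 128667, 99167 and 369500 counts, in the order of replicates 1, 2 and 3. Of the 434 mature arms in the table, 208 had at least 1 read in these 6 libraries, and 118 of the 208 had enough reads for a test. The 90 arms with too few reads held 668 of the 1379279 counts, and none had more than 110 in all. A further 10 arms were tested on the strength of later stages but had no read here, so the test ran over 128 arms. The most abundant arms dominated every library: the 10 largest took 86.1% to 91.1% of the counts at 120 min and 88.4% to 92.0% at 60 min. The 5p and 3p names are those of the table, and whether each read was given to the right arm was not tested.

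The third 60 min library stood apart from the other 60 min libraries. Its log2 CPM, the count scaled by library size and TMM factor, correlated across arms at 0.819 with replicate 1 and at 0.806 with replicate 2, whereas those 2 libraries correlated with each other at 0.867, and the 120 min libraries correlated with one another at 0.849 to 0.864. It held 2501 reads of miR-81-3p against 97 and 75 in replicates 1 and 2, and 955 reads of miR-70-3p against 2 and 0. It also held 40773 reads of miR-235-3p, against 1450 and 1739. The calls are given with and without that library.

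Markers of the embryo and of older tissue were read in both stages. Of 16 arms of the mir-35 family, known for oocytes and early embryos, 15 had reads. Of 14 arms in the let-7 and lin-4 families, which time larval development and would mark tissue of the cut mother, 8 had reads and 6 had none, among them both let-7 arms. Their summed share was 0.0107%, 0.0230% and 0.0277% of counts at 120 min, against 0.0093%, 0.0061% and 0.0863% at 60 min. The highest of these values was that of 60 min replicate 3, and their part in the results was not tested. Of these arms 3 were tested and none was called.

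At 120 min, 3 arms were higher and 5 were lower than at 60 min at an adjusted p under 0.05 (edgeR quasi-likelihood test fitted over all 24 libraries, Benjamini-Hochberg adjustment over 128 arms). These calls made up 6.25% of the arms tested, with 2.34% higher and 3.91% lower. miR-228-3p, miR-54-3p and miR-1-5p rose, each with at most 4 reads over the 60 min libraries together. miR-72-5p, miR-61-3p, miR-74-5p, miR-253-3p and miR-87-5p fell, and the first 3 of these were among the 10 most abundant arms of the embryo. All 8 arms had no overlap between the 3 libraries of 120 min and the 3 of 60 min, in CPM and in share of counts. Among all 128 arms, the libraries did not overlap for 28 arms in CPM (21.9%, with 7.81% higher and 14.1% lower at 120 min) and for 39 arms in share (30.5%, with 20.3% higher and 10.2% lower). Without 60 min replicate 3 all 8 arms kept their calls, among 7 higher arms (5.47%) and 6 lower arms (4.69%), together 10.2% of the 128. An unadjusted p under 0.05 was found for 35 arms (27.3%) with all libraries and for 26 (20.3%) without that one.

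**Figure D1:**
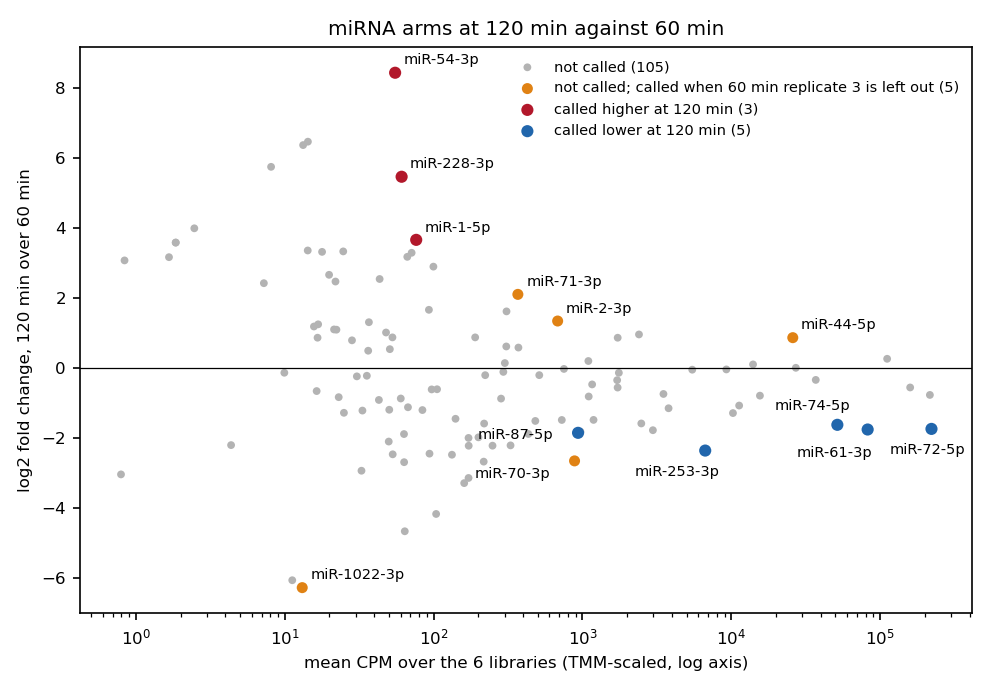
Each point is 1 tested arm, placed by its mean TMM-scaled CPM over the 6 libraries on the horizontal log axis and by its log2 fold change, 120 min over 60 min, on the vertical axis. The 3 arms called higher lie at low levels, while miR-72-5p, miR-74-5p and miR-61-3p, called lower, lie among the most abundant arms.

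The balance of higher and lower calls differed between scalings. TMM factors set the libraries on a scale where most arms are taken as stable. They were higher at 120 min than at 60 min by 0.87 in mean log2, while DESeq2 size factors differed by 0.20. By library the TMM factors were 0.927, 1.53 and 1.65 at 120 min, against 0.691, 0.987 and 0.567 at 60 min, with overlap. With total counts in place of TMM factors, 14 arms were called higher (10.9%) and 2 lower (1.56%, together 12.5%), and with DESeq2 size factors 11 were called higher (8.59%) and 3 lower (2.34%, together 10.9%). The DESeq2 test called 20 higher (15.6% of all 128 arms) and 5 lower (3.91%, together 19.5%), with all 8 arms among them. It gave no adjusted p for 37 of the 128, which could not be called. The median log2 fold change of the 118 tested arms with reads was -0.41 with TMM factors, 0.41 with total counts and 0.24 with DESeq2 size factors. Values below are log2 fold changes with TMM factors unless another scale is named, and shares of counts, which need no factor, are given beside many of them.

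miR-228-3p had 45, 20 and 56 reads at 120 min, against 0, 0 and 1 read at 60 min. Its level was 120 ± 40.4 CPM at 120 min, against 1.59 ± 2.76 CPM at 60 min (mean ± SD, n = 3 each), and every 120 min library stood above every 60 min library. The ratio was 45.1 with a 95% counting interval of 7.94 to 1795, an interval that covers counting error only. The fitted log2 fold change was 5.46 ± 0.93 (SE, adjusted p = 0.00017, edgeR). The mir-228 hairpin lies on chromosome IV at 5562025 to 5562122 on the plus strand (WBcel235), outside protein-coding genes, and its promoter is widely used to mark glial cells. The partner arm miR-228-5p, the abundant one, took 0.322%, 0.348% and 0.350% of counts at 120 min, against 0.221%, 0.101% and 0.505% at 60 min, and its libraries overlapped (log2 fold change -0.74, adjusted p = 0.321, edgeR).

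miR-54-3p had 23, 44 and 15 reads at 120 min and no read in any 60 min library. Its level of 110 ± 100 CPM at 120 min (SD, n = 3) was at least 10.2-fold higher than at 60 min, where the bound sets 60 min at a floor of 3 reads over its 3 libraries (adjusted p = 0.00553, edgeR). mir-54 belongs to the mir-51 family. Its hairpin lies on chromosome X at 13144996 to 13145094 on the minus strand, within an intron of F09A5.3, which runs on the opposite strand.

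miR-1-5p had 64, 21 and 48 reads at 120 min, against 0, 3 and 1 at 60 min. Its level was 141 ± 84.3 CPM at 120 min, against 11.8 ± 16.5 CPM at 60 min (mean ± SD, n = 3 each), a log2 fold change of 3.66 ± 0.87 (SE, adjusted p = 0.00553, edgeR). mir-1 is the conserved muscle miRNA, and its hairpin lies on chromosome I at 6172662 to 6172757 on the minus strand, outside protein-coding genes. No read of miR-1-3p was counted in any of the 6 libraries, so every read of the hairpin carried the 5p name. Whether that name was right was not tested. Among the other tissue markers, miR-60-3p of the intestine had 133, 73 and 342 reads at 120 min, against 50, 10 and 205 at 60 min. With all libraries and TMM factors it did not pass (log2 fold change -0.20, adjusted p = 0.933, edgeR). Of the tissue-restricted list, 5 arms were tested, 3 of them with reads here, and miR-1-5p was the single call. Summed over the list, the share was 0.0681%, 0.0752% and 0.109% at 120 min, against 0.0389%, 0.0131% and 0.0563% at 60 min, without overlap. The neuronal lsy-6-3p had 0, 0 and 3 reads at 120 min and none at 60 min, too few for a fold.

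miR-72-5p was the most abundant arm of the 60 min embryos. It took 14.1%, 11.1% and 13.2% of counts at 120 min, against 25.6%, 23.8% and 23.1% at 60 min, so its mean share was 12.8% ± 1.55 at 120 min, against 24.2% ± 1.31 at 60 min (mean ± SD, n = 3 each). The log2 fold change was -1.74 ± 0.37 (SE, adjusted p = 0.00212, edgeR). With total counts as the scale it was -0.91 and stayed past the threshold (adjusted p = 0.0013, edgeR). The mir-72 hairpin lies on chromosome II at 2452838 to 2452936 on the plus strand, outside protein-coding genes.

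miR-61-3p took 4.41%, 4.68% and 5.72% of counts at 120 min, against 7.91%, 8.51% and 10.2% at 60 min. Its mean share was 4.93% ± 0.689 at 120 min, against 8.88% ± 1.20 at 60 min (mean ± SD, n = 3 each), and its log2 fold change was -1.76 ± 0.37 (SE, adjusted p = 0.00212, edgeR). With total counts the log2 fold change was -0.85 (adjusted p = 0.0191, edgeR), and with total counts and without 60 min replicate 3 it was -0.73 and lost its call (adjusted p = 0.0709, edgeR). mir-61 acts downstream of LIN-12/Notch in the vulval precursor cells of the larva. Its hairpin lies on chromosome V at 11770060 to 11770156, next to mir-250 at 11769917 to 11770015 on the same minus strand.

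miR-74-5p took 3.05%, 3.75% and 3.02% of counts at 120 min, against 5.16%, 5.87% and 5.63% at 60 min. Its level was lower in each 120 min library than in any 60 min library (log2 fold change -1.62 ± 0.40 SE, adjusted p = 0.00553, edgeR). With total counts the log2 fold change was -0.76 and did not pass (adjusted p = 0.0889, edgeR). Its hairpin lies on chromosome X at 2369043 to 2369139, just downstream of mir-73.

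miR-253-3p had the largest fold of the 5 lower arms. It had 741, 252 and 1502 reads at 120 min, against 772, 925 and 3223 at 60 min, and its level was 2179 ± 801 CPM at 120 min, against 11172 ± 3670 CPM at 60 min (mean ± SD, n = 3 each). The log2 fold change was -2.36 ± 0.66 (SE, adjusted p = 0.0197, edgeR). The hairpin lies on chromosome V at 5780510 to 5780616 on the minus strand, in an intron of F44E7.5 on the same strand. Its call ended when any 1 of the 120 min libraries was left out (adjusted p up to 0.127, edgeR) and with total counts (log2 fold change -1.48, adjusted p = 0.097, edgeR).

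miR-87-5p had 176, 65 and 142 reads at 120 min, against 159, 113 and 303 at 60 min. Its level was 406 ± 218 CPM at 120 min, against 1463 ± 317 CPM at 60 min (mean ± SD, n = 3 each), a log2 fold change of -1.85 ± 0.52 (SE, adjusted p = 0.0197, edgeR). miR-87-3p, from the same hairpin, had a log2 fold change of 0.14 (adjusted p = 0.977, edgeR). The hairpin lies on chromosome V at 12038688 to 12038781 on the minus strand, in an intron of kup-1 on the same strand. The call of miR-87-5p ended without 120 min replicate 2, without 120 min replicate 3 or without 60 min replicate 1 (adjusted p up to 0.107, edgeR), and with total counts (log2 fold change -1.09, adjusted p = 0.0796, edgeR).

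The fold changes of the called arms without 60 min replicate 3 lay on the same side of 0. The log2 fold change of miR-1-5p was then 3.13 (adjusted p = 0.0292, edgeR), while miR-228-3p and miR-54-3p had no read in the other 60 min libraries, so no fold is given (adjusted p = 0.00121 and 0.0275, edgeR). miR-72-5p had a log2 fold change of -1.59 (adjusted p = 0.00692) and miR-61-3p of -1.42 (adjusted p = 0.0223, edgeR). That of miR-74-5p was -1.41 (adjusted p = 0.0275), that of miR-253-3p -2.06 (adjusted p = 0.0299) and that of miR-87-5p -1.86 (adjusted p = 0.0275, edgeR).

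**Figure D2:**
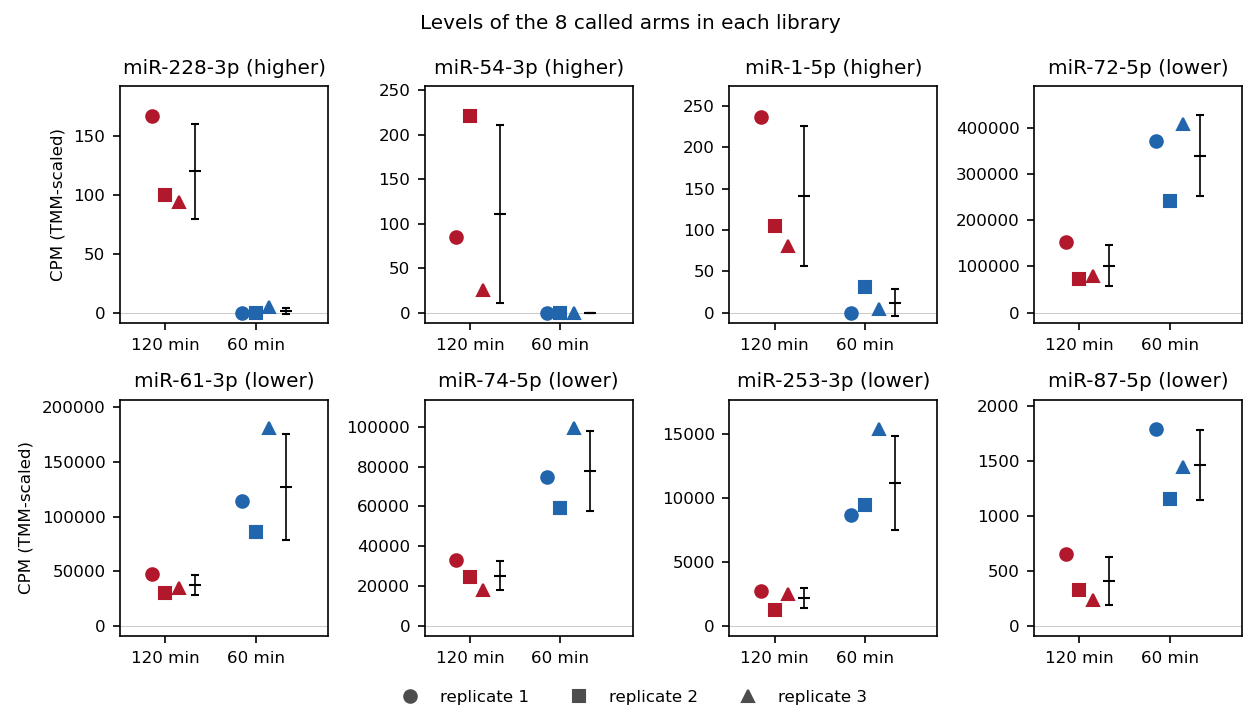
Each panel shows 1 of the 8 called arms, with TMM-scaled CPM on a linear axis of its own for the 3 libraries of 120 min on the left and the 3 of 60 min on the right. Points are libraries, with a symbol for each replicate number, black marks are means with bars of 1 SD, and in no panel do the points of the stages overlap.

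The mir-72 and mir-61 groups accounted for most of the counts that the lower arms held. Sums over a family or cluster took in both arms of each hairpin, and whether each arm carries the family's seed was not tested. The mir-72 to mir-74 family, for which 6 arms were tested and 2 were called lower, took 21.5%, 17.1% and 19.9% of counts at 120 min, against 33.1%, 30.8% and 30.9% at 60 min. Its other abundant member, miR-73-3p, took 4.22%, 2.15% and 3.61% at 120 min, against 2.23%, 1.06% and 2.17% at 60 min, with a log2 fold change of 0.01 that did not pass the edgeR test. The mir-73 and mir-74 hairpins are neighbours on chromosome X with 4 tested arms, of which miR-74-5p was called, and summed over both the share was 6.62% ± 0.693 at 120 min, against 7.37% ± 0.438 at 60 min (mean ± SD, n = 3 each). The mir-61 and mir-250 pair took 4.56%, 4.88% and 5.96% at 120 min, against 8.24%, 8.80% and 10.6% at 60 min. Both arms of mir-250 and the minor arm miR-61-5p also had lower shares in every 120 min library than in any 60 min library. None of these 3 passed the test: log2 fold changes were -1.58 for miR-250-3p (adjusted p = 0.0625) and -1.88 for miR-250-5p (adjusted p = 0.102, edgeR), and miR-61-5p, with 25, 8 and 43 reads at 120 min against 30, 23 and 53 at 60 min, had an adjusted p of 0.342 (edgeR). The median over the 4 arms of the pair was -1.82 with TMM factors and -0.94 with total counts, beside -0.41 and 0.41 over all arms.

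The cluster of mir-229, mir-64, mir-65 and mir-66 held the largest share of counts among the families and clusters described here. It took 59.0%, 55.1% and 48.7% of counts at 120 min, against 47.5%, 47.5% and 32.9% at 60 min, without overlap, a mean of 54.3% ± 5.17 at 120 min, against 42.6% ± 8.45 at 60 min (mean ± SD, n = 3 each). None of its 8 tested arms was called, and their median log2 fold change was -0.17 with TMM factors and 0.62 with total counts. Within the cluster miR-229-3p took 17.5%, 15.6% and 12.1% at 120 min, against 7.18%, 9.95% and 5.60% at 60 min, without overlap in share but with overlap in CPM (log2 fold change 0.26, adjusted p = 0.70, edgeR). With total counts its log2 fold change was 0.99 (adjusted p = 0.0191, edgeR), and without 60 min replicate 3 on that scale it was 0.82 (adjusted p = 0.0716, edgeR). miR-64-5p took 21.4%, 20.5% and 18.7% at 120 min, against 22.5%, 20.6% and 15.9% at 60 min, and its libraries overlapped.

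The mir-35 family, with 8 members known from oocyte to embryo, had no called arm among its 14 tested arms, 12 of them from the mir-35 to mir-41 cluster. Its summed share was 4.56%, 7.70% and 7.68% at 120 min, against 4.68%, 5.09% and 5.29% at 60 min. The median log2 fold change of its arms was -1.01 with TMM factors, with 12 arms negative and 2 positive, and -0.02 with total counts. The most abundant member miR-36-3p took 3.66%, 4.20% and 5.07% at 120 min, against 2.70%, 2.65% and 3.28% at 60 min, higher without overlap in share. Its log2 fold change was -0.34 with TMM factors (adjusted p = 0.70, edgeR). With total counts it was 0.59 (adjusted p = 0.36) and with DESeq2 size factors 0.38 (adjusted p = 0.51, edgeR). Because members are similar in sequence and could share reads, single arms of this family are less certain than its sum.

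miR-44-5p had higher CPM in every 120 min library than in any 60 min library. It took 3.52%, 4.40% and 5.53% of counts at 120 min, against 1.13%, 1.34% and 1.41% at 60 min. Yet its log2 fold change of 0.87 did not pass in the full comparison (adjusted p = 0.101, edgeR). With the replicate number as a block it was also 0.87 and passed (adjusted p = 0.0449, edgeR). Without 60 min replicate 3 it was 1.16 and passed (adjusted p = 0.0486), and with total counts it was 1.79 (adjusted p = 3.37e-06, edgeR). In a fit on the 6 libraries alone, miR-44-5p (log2 fold change 1.76, adjusted p = 0.0195) and miR-52-5p (1.79, adjusted p = 0.0448, edgeR) were the only calls (2.67% of the 75 arms tested there), and 7 of the 8 arms above did not pass there while miR-54-3p was not among the arms tested. The nearest were miR-253-3p (log2 fold change -1.51, adjusted p = 0.0535) and miR-228-3p (adjusted p = 0.054, edgeR). The mir-42 to mir-44 cluster as a whole took 4.77%, 5.76% and 6.61% of counts at 120 min, against 1.71%, 2.31% and 2.17% at 60 min, and none of its 5 tested arms was called. The mir-44 family, which groups mir-44, mir-45, mir-61 and mir-247, had 4 tested arms, of which miR-61-3p was called lower, and its summed share was 9.48% ± 1.70 at 120 min, against 10.2% ± 1.32 at 60 min (mean ± SD, n = 3 each).

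The mir-51 family, broadly expressed in the worm, took 0.441%, 0.568% and 0.508% of counts at 120 min, against 0.240%, 0.198% and 0.251% at 60 min, a mean of 0.506% ± 0.0635 at 120 min, against 0.229% ± 0.0281 at 60 min (mean ± SD, n = 3 each). Of its 8 tested arms 1, miR-54-3p, was called, and 6 of the 7 with reads had a positive log2 fold change. Their fitted median was 2.47, or 1.78 with the arm unread at 60 min set at its bound and miR-56-3p, with too few reads for a fold, left out. Treated the same way, the median over all arms was -0.56. The mir-54 to mir-56 cluster holds 4 of these tested arms, with miR-54-3p as its single call. The most abundant member of the mir-51 family, miR-52-5p, had 720, 442 and 1070 reads at 120 min, against 108, 84 and 333 at 60 min, and did not overlap in CPM or share (log2 fold change 0.87, adjusted p = 0.213, edgeR; with total counts 1.77, adjusted p = 0.000745). The ratio of miR-53-3p, with 8, 2 and 59 reads at 120 min against 0, 0 and 2 at 60 min, was 12.8 (95% counting interval 3.42 to 108).

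**Figure D3:**
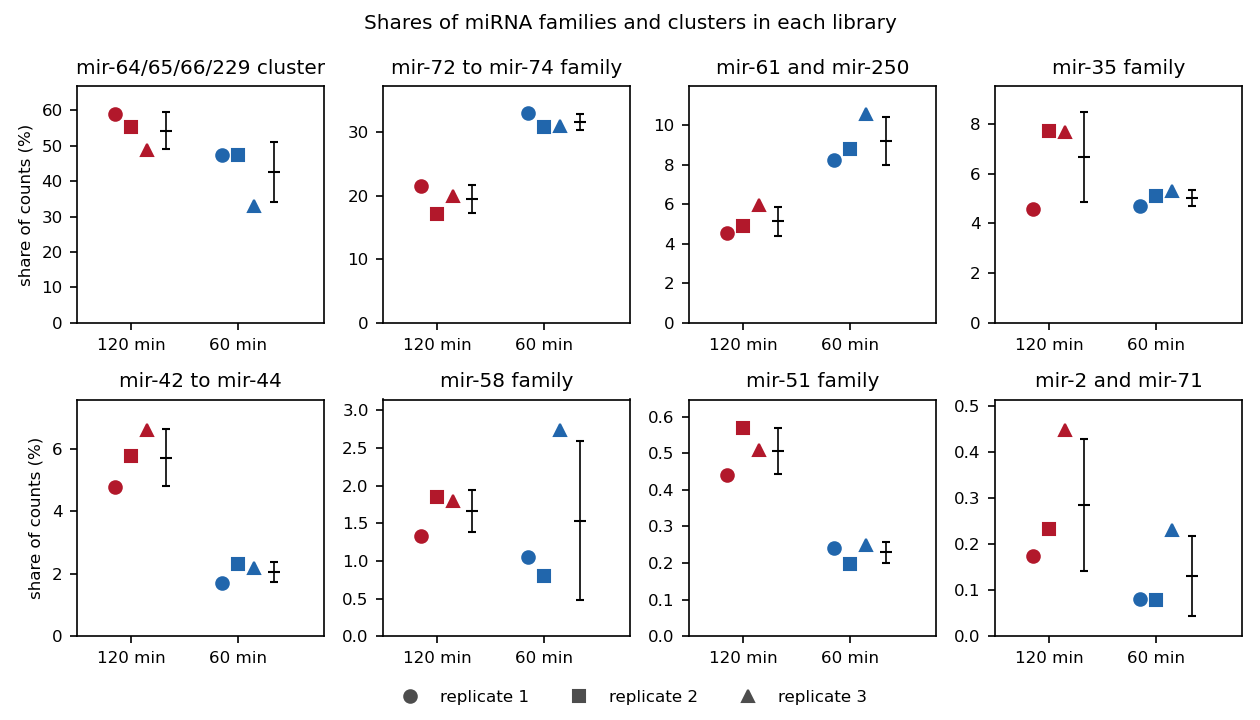
Share of counts in percent, on a linear axis from 0, for 8 families and clusters, with the 3 libraries of 120 min drawn left of the 3 libraries of 60 min in each panel. Points are libraries and black marks are means with bars of 1 SD. The mir-72 to mir-74 family and the mir-61 and mir-250 pair lie lower at 120 min, and the mir-51 family, the mir-42 to mir-44 cluster and the mir-64, mir-65, mir-66 and mir-229 cluster lie higher, with no overlap between libraries.

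The bantam and mir-2 families had no called arm. The mir-58 (bantam) family took 1.34%, 1.85% and 1.79% of counts at 120 min, against 1.05%, 0.802% and 2.74% at 60 min, with 60 min replicate 3 the highest of the 6 libraries. The mir-2 family took 1.43%, 1.60% and 1.49% at 120 min, against 0.848%, 1.19% and 1.04% at 60 min, without overlap, and 3 of its 6 tested arms had a positive log2 fold change. Its member mir-2 lies beside mir-71, a miRNA that extends adult lifespan. None of the 4 tested arms of the pair was called in the full comparison, with stage as the only factor. miR-2-3p had 208, 126 and 916 reads at 120 min, against 11, 29 and 152 at 60 min, and miR-71-3p had 90, 90 and 606 reads at 120 min, against 2, 10 and 59. In the full comparison neither passed (log2 fold changes 1.34 and 2.10, adjusted p = 0.155 and 0.102, edgeR). Both passed without 60 min replicate 3 (2.22 and 3.25, adjusted p = 0.0292 and 0.0278, edgeR). With all libraries, TMM factors and the replicate number as a block, both passed (1.43 and 2.38, adjusted p = 0.0449 and 0.0101, edgeR). Both also passed with all libraries kept under total counts (2.40 and 3.24, adjusted p = 0.00557 and 0.017, edgeR), DESeq2 size factors (adjusted p = 0.00827 and 0.0206, edgeR) and the DESeq2 test (adjusted p = 0.000622 and 0.00132).

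With TMM factors, leaving out 60 min replicate 3 added 5 calls, among them miR-44-5p, miR-2-3p and miR-71-3p. miR-70-3p turned its direction: it had 14, 45 and 268 reads at 120 min, against 2, 0 and 955 at 60 min, with a log2 fold change of -2.65 with all libraries (adjusted p = 0.18) and 4.46 without that library (adjusted p = 0.00447, edgeR). Without 60 min replicate 2 it was called lower (-3.23, adjusted p = 0.0192, edgeR). The fifth, miR-1022-3p, had no read at 120 min and 7, 0 and 0 at 60 min, so its call rested on 60 min replicate 1, and it was also called without 60 min replicate 2 (adjusted p = 0.0429, edgeR). miR-235-3p, a relative of miR-92 that holds larval blast cells quiescent under starvation, took 1.39%, 4.37% and 4.99% of counts at 120 min, against 1.13%, 1.75% and 11.0% at 60 min. Its log2 fold change was -1.63 with all libraries (adjusted p = 0.13, edgeR) and 0.53 without 60 min replicate 3. It was called lower without 60 min replicate 1 (-2.11, adjusted p = 0.033) and without 60 min replicate 2 (-2.10, adjusted p = 0.0238, edgeR).

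Besides miR-81-3p and miR-70-3p, 3 arms with at least 50 reads in 60 min replicate 3 had a share there at least 8 times that of each other 60 min library. miR-49-5p had 194 reads there and 2 and 3 in replicates 1 and 2, miR-48-5p had 189 against 5 and 0, and miR-2219-5p had 58 against 2 and 0. At 120 min these arms had 43, 9 and 76 reads, 7, 10 and 99 reads, and 9, 0 and 28 reads. miR-48-5p belongs to the let-7 family of larval timing.

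The other libraries also carried weight. With filter and TMM factors computed anew, no arm was called lower without 120 min replicate 2, without 120 min replicate 3, without 60 min replicate 1 or without 60 min replicate 2, where 7 arms (5.15%), 10 arms (7.35%), 21 arms (15.2%) and 8 arms (5.76%) were called higher. With the factors of the full set kept, the 3 higher arms and miR-72-5p, miR-74-5p and miR-61-3p passed in each of the 6 fits that left out 1 library. Without the filter on low counts, which left 297 arms in the test, the 3 higher arms kept their calls (1.01%) and no arm was called lower by edgeR (31 arms at an unadjusted p under 0.05).

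**Figure D4:**
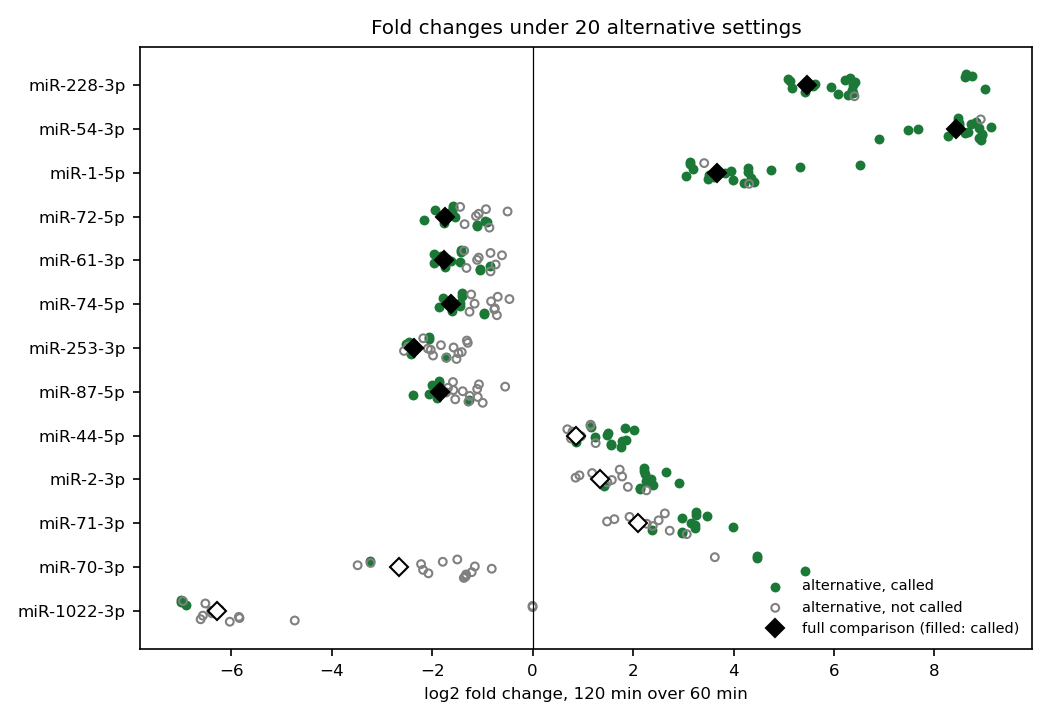
Log2 fold change, 120 min over 60 min, of the 8 called arms and the 5 that gained a call when 60 min replicate 3 was left out with TMM factors kept. Diamonds are the full comparison and circles the 20 alternatives of scaling, libraries and test, filled where the adjusted p was under 0.05. miR-228-3p, miR-54-3p and miR-1-5p lie above 0 under every setting drawn, and miR-70-3p lies on both sides of 0.

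The balance of the arms of a hairpin was compared where both were tested and the hairpin had at least 20 reads in each library, which left 25 of 36 hairpins. The 5p arm took a lower percentage of the hairpin's reads in every 120 min library than in any 60 min library for 5 hairpins and a higher one for 1, while 19 overlapped. For mir-228 the 5p percentage was 95.4, 95.8 and 95.8 at 120 min, against 100, 100 and 99.9 at 60 min. For mir-71 it was 68.8, 46.7 and 13.4 at 120 min, against 97.9, 80.0 and 91.6 at 60 min. The mir-72 and mir-74 hairpins were among the 5 as well, with the 5p arm still above 99 percent in every library. These percentages need no scaling between libraries.

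At the later stages the higher arms stayed above their 60 min share. The mean share of miR-228-3p was 0.0001% at 60 min, 0.0154% at 120 min and 0.0995% at 180 min. It was lower, 0.0386%, at 225 min, then 0.336% at 410 min and 0.271% at 500 min. That of miR-1-5p was 0.0011% at 60 min and 0.0171% at 120 min, with its highest stage mean, 0.139%, at 225 min. The lower arms parted: miR-74-5p had a mean share of 5.55% at 60 min, 3.28% at 120 min and, by 500 min, 0.0732%. The mean share of miR-253-3p was 0.802% at 60 min, 0.288% at 120 min and, by 500 min, 0.0113%. miR-72-5p lay between 9.26% and 12.2% at every stage after 120 min. miR-87-5p had 0.107% at 60 min, 0.0499% at 120 min and 0.0277% at 180 min, and then 0.476% at 330 min. miR-44-5p had 1.30% at 60 min, 4.48% at 120 min and 9.05% at 180 min, its highest stage mean. These are means over 3 libraries per stage, given as a description with no test.

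**Figure D5:**
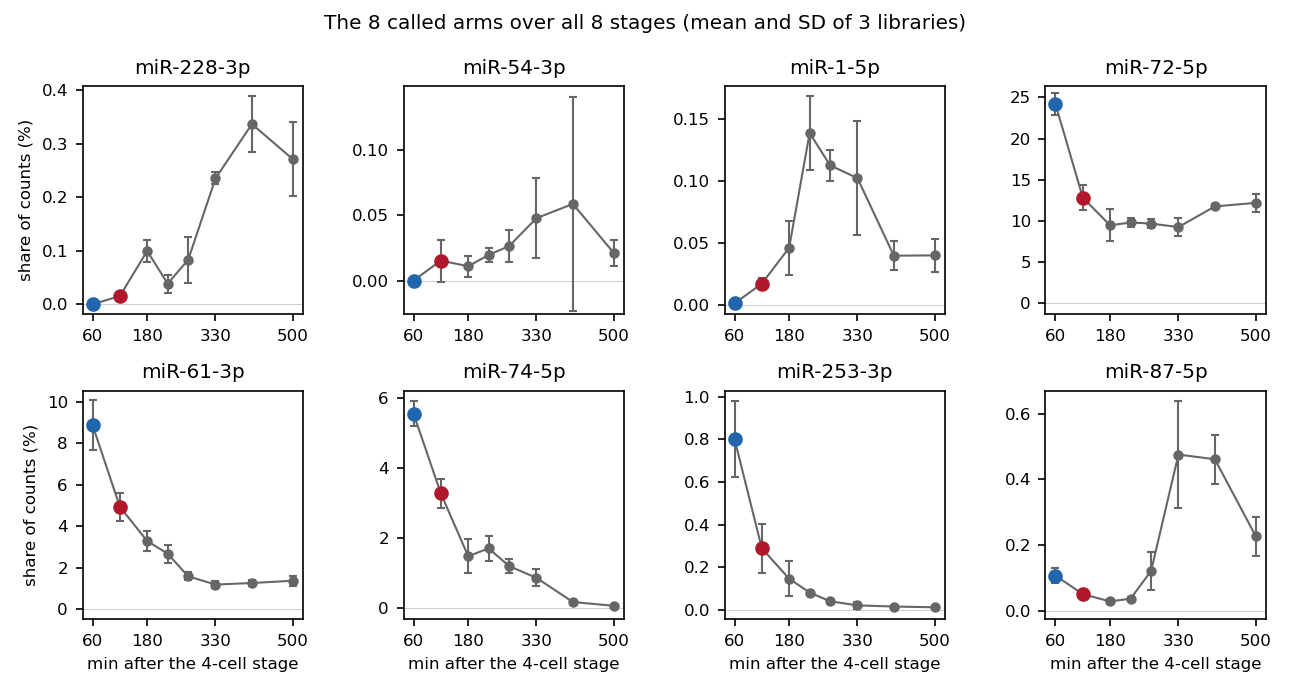
Mean share of counts in percent, on a linear axis in each panel, of the 8 called arms at the 8 stages from 60 to 500 min after the 4-cell stage, with error bars of 1 SD over 3 libraries. The lines of miR-74-5p and miR-253-3p end far below their 120 min values at 500 min, and that of miR-87-5p is highest at 330 min.

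Arms read at 1 stage only mostly had few reads. At 120 min 35 arms had reads without any at 60 min, and at 60 min 44 arms had reads without any at 120 min, but few had 10 reads or more. Those seen only at 120 min with at least 10 reads were miR-54-3p, miR-79-3p (11, 9 and 0 reads), miR-48-3p (8, 10 and 0), miR-5546-5p (7, 0 and 21) and miR-800-5p (0, 4 and 17). Those seen only at 60 min were miR-241-3p (1, 0 and 54 reads) and miR-253-5p (0, 0 and 53), nearly all of them in 60 min replicate 3. miR-241-3p, miR-253-5p and miR-5546-5p were not tested, and of the other 4 miR-54-3p was called.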

How the data were processed

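Small RNA was extracted with TRIzol and made into libraries with an Illumina TruSeq small RNA kit, per the labels' protocols, which describe no molecular identifiers, so counting intervals and floors do not cover amplification. The authors deposited raw read counts per mature miRNA arm, whole numbers with no normalization. Bowtie and HTSeq were used per the submitters' processing notes, and their versions, the genome build, the annotation and the handling of reads that map to several places were not given in sources used here. Reads of nearly identical family members could therefore be split between them.

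Counts were tested in R 4.3.3 with edgeR 4.0.16 (filterByExpr by stage, minimum count 10, TMM factors, robust quasi-likelihood fit over all 24 libraries with stage as the factor, common biological coefficient of variation 0.706). P-values were adjusted by Benjamini-Hochberg over the 128 arms, and 0.05 was the threshold. The SE is the size of the log2 fold change divided by the square root of F, and CPM uses TMM-scaled totals. Intervals of ratios with 1 to 3 reads at a stage are exact at 95%, and the floor is 3 counts over a stage. The procedure was run on simulated counts with large planted changes and no other change of level between stages. That run does not cover smaller changes or a shift of scale between stages. Alternatives were DESeq2 1.42.0 (size factors or its Wald test), total counts, no filter, the 6 libraries alone, the replicate number as a block and leaving out libraries. Total counts without 60 min replicate 3, and leaving out replicate 3 of both stages, were added after seeing the data.

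The arms named are the 10 most abundant, those called, those whose call changes without 60 min replicate 3, those with at least 10 reads at 1 stage only and members of 9 families and 7 clusters. The comparison and the lists were chosen with earlier results of these data known. Arms of the mir-228, mir-87, mir-49 and mir-2219 hairpins that are named beside these were chosen after their values were seen. Hairpin positions come from the Ensembl WBcel235 annotation by name (57 of 59 hairpins found).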

Additional observations from a re-analysis of the deposited data

How the results depend on the processing

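The arms called higher and lower at 120 min numbered 3 and 5 as reported. They numbered 14 and 2 with total counts, 11 and 3 with DESeq2 size factors and 20 and 5 by the DESeq2 test (adjusted p missing for 37 arms). Without the low-count filter they numbered 3 and 0, and in the 6 libraries alone 2 and 0. With total counts and without 60 min replicate 3, an alternative chosen after seeing the data, they numbered 14 and 1. Leaving out 1 library, or replicate 3 of both stages (1 and 0, also chosen afterwards), gave 1 to 21 higher and 0 to 14 lower arms. Without replicate 3 of both stages miR-228-3p kept its call, and no other reported arm did. Replicate numbers were not taken to pair the libraries: deviations of same-numbered libraries correlated at 0.0952, 0.133 and 0.166, although every library correlated best with its own number. With the replicate block 6 arms were higher and 7 lower, among them all 8 reported and, as higher, miR-44-5p, miR-2-3p and miR-71-3p. The calls of miR-228-3p, miR-54-3p and miR-1-5p held in 19 of 20, 18 of 19 and 18 of 20 alternatives, those of miR-72-5p, miR-74-5p and miR-61-3p in 13, 11 and 12 of 20, and those of miR-253-3p and miR-87-5p in 6 and 7 of 20. Arms outside the reported calls also passed: miR-44-5p in 12 of 20 alternatives, and miR-2-3p and miR-71-3p in 11 of 20 each, always as higher. No other uncalled arm that was followed passed in more than 4.

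Among the 19 arms followed across the alternatives, the log2 fold change changed sign for 7, none of them called with all libraries and TMM factors. For miR-64-5p it was 0.038 with total counts and 0.091 in the 6 libraries alone, and -1.14 to 0.55 with a library left out. For miR-65-5p it was 0.0071 with DESeq2 size factors, 0.0072 by the DESeq2 test, 0.22 with total counts, 0.28 in the 6 libraries, 0.023 with total counts without 60 min replicate 3, and -0.97 to 0.78 with a library left out. For miR-36-3p it was 0.38 with DESeq2 size factors and by its test, 0.59 with total counts, 0.10 without the filter, 0.58 in the 6 libraries, 0.69 with total counts without 60 min replicate 3, and -0.57 to 0.85 with a library left out. With a library left out it ran from -0.20 to 1.41 for miR-229-3p, from -0.59 to 1.34 for miR-73-3p, from -2.11 to 0.53 for miR-235-3p and from -3.48 to 4.46 for miR-70-3p. With total counts and without 60 min replicate 3 it was 1.32 for miR-235-3p and 5.42 for miR-70-3p. The cause was not tested, beyond the shift of the factors themselves.

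A log2 ratio of the mean share, 120 min over 60 min, left the 5 largest arms out of the total and family sums. It was 0.84 for the mir-51 family, -0.43 for the mir-72 to mir-74 family, 1.44 for the mir-44 family and 0.25 for the mir-2 family. The mir-72 to mir-74 sum then lacked miR-72-5p and the mir-44 sum miR-61-3p, so their ratios cover fewer arms than the sums above. With all arms kept, the ratio of the heterochronic families was 1.41 without 60 min replicate 3 and as low as -1.22 without another library. The 3 higher arms rest on 82 to 133 reads each over the 120 min libraries.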
